A study of Mus musculus with 18 samples.

Results

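The sterol and fatty acid synthesis genes are 32 genes for the enzymes that build cholesterol and long-chain fatty acids, together with the regulators that fit their output to the sterol content of the cell. They were taken as every gene of a written list for which a probe could be matched by RefSeq transcript name, and all 32 were found among the 22911 genes with a probe. By role, 6 act in the mevalonate and isoprenoid steps, 11 in the squalene and post-squalene sterol steps, 6 in SREBP control and sterol transfer, and 9 in fatty acid synthesis, elongation and desaturation. Of the 32, 31 stood among the 16022 genes tested, and each of the 31 read well above background on all 18 arrays. Scap was not among the 16022 because 1 of its spots was an outlier, and its values are given apart.

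RNA came from mouse embryonic stem cells of strain 129SV, with 1 array for each of 18 samples. According to the labels every sample had an Esrrb knockout, Esrrb being an orphan nuclear receptor that maintains pluripotency, and expressed Raf-ErT2, a Raf kinase made inducible by 4-hydroxytamoxifen (4OHT) that drives Mek and ERK. The line labelled Rescue had received an Esrrb transgene and the line labelled KO an empty vector, with 9 arrays each. The titles split each line into 3 arrays of 0h, 3 of 8h and 3 of 8h2h. All cells had been kept in serum with LIF and 2 uM of the GSK3 inhibitor Chir99021, and for the 24 h before treatment in serum and LIF with 250 nM PD173074, which blocks FGF receptors. Treatment was none, 250 nM 4OHT for 8 h, or 4OHT for 8 h and then a Mek inhibitor for 2 h. On 12 arrays the title and the source name disagree about which of the last treatments was given, and groups were named by title. No label used here says what drives the transgene, whether a line is 1 clone, or whether the replicate letters a, b and c are separate cultures, so p-values measure only the spread between these arrays, which may be technical. The Mek inhibitor and the 2 h of further culture cannot be told apart.

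Mammalian cells condense acetyl-CoA to mevalonate, convert mevalonate to the isoprenoid farnesyl pyrophosphate, join 2 of these into squalene, and fold squalene into lanosterol, which a chain of demethylations, reductions and isomerisations turns into cholesterol. SREBP2, made by Srebf2, is the transcription factor best known for raising these enzymes when membrane sterol is low, and SREBP1, made by Srebf1, is better known for fatty acid synthesis. Both are held in the endoplasmic reticulum by Scap with Insig proteins until sterol falls. Dividing stem cells use the products for new membrane, for protein prenylation and for oxysterol signals.

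Values are log2 scaled signals, the log2 of the processed spot intensity minus that of the array's 75th percentile, so 0 is that percentile and a difference of 1 is a doubling. Errors on changes are standard errors and errors on group means are SDs, both with n = 3 arrays a group, and calls were made in limma where the p adjusted after Benjamini and Hochberg over all 16022 genes was below 0.05. The share of probes with signal well above background lay between 46.6% and 63.8% on 17 arrays and was 88.6% on the KO-labelled array titled 8h2h b, which stood apart from its replicates (r = 0.943 to 0.945, against 0.983 to 0.996 for all other pairs of replicates). The 75th percentile ran from 297 to 765 intensity units. Without any scaling the median of all genes shifts by up to 0.47 on the log2 scale between groups, and 44 of the 55 called member changes are lost, although all 55 keep their sign. Dusp6, an ERK phosphatase and ERK output, averaged 2.69 ± 0.66 at 0h, 4.67 ± 0.09 on arrays titled 8h and 0.43 ± 0.24 on arrays titled 8h2h in the Rescue-labelled line, and 2.34 ± 0.03, 4.58 ± 0.05 and 0.17 ± 0.16 in the KO-labelled line. From 0h to 8h 4 other ERK outputs rose in the Rescue-labelled and the KO-labelled line, Spry2 by 2.33 and 2.26, Spry4 by 3.85 and 3.04, Egr1 by 4.62 and 2.60, and Etv4 by 1.96 and 1.78. From 8h to 8h2h Dusp6, Spry2, Spry4 and Egr1 fell in both lines, and Etv4 did not pass the test (-0.12 and -0.33, adjusted p = 1 and 0.547). The direction of the first 4 goes with the titles and not with the source names, and Etv4 does not separate 8h from 8h2h. Esrrb itself read 5.03 ± 0.27 at 0h on the KO-labelled and 4.40 ± 0.41 on the Rescue-labelled arrays, a difference of 0.63 ± 0.26 (adjusted p = 0.118), and was 1.84 ± 0.26 and 2.23 ± 0.26 higher on the KO-labelled arrays at 8h and 8h2h (adjusted p = 2.03e-04 and 5.00e-05). This goes against the labels unless the probe lies outside the deleted part, which was not tested, so every direction between the lines rests on arrays labelled KO and Rescue.

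The lines differed in 6 members at 0h, 9 at 8h and 9 at 8h2h. At 0h all 6 were higher on the KO-labelled arrays, and 18.4% of all genes were called (7.09% higher and 11.3% lower). Scap, fitted apart by limma, is not in these counts and went the other way. It was lower on the KO-labelled arrays at 0h (-0.57 ± 0.16, adjusted p = 0.0279) and 8h2h (-0.51 ± 0.15, adjusted p = 0.026). At 8h 6 members were higher and 3 lower, with 21.5% of all genes called (9.16% and 12.4%), and at 8h2h 5 were higher and 4 lower, with 21.8% called (9.55% and 12.3%). The members' median difference was 0.22 at 0h against -0.02 for all genes, 0.04 against -0.01 at 8h, and -0.03 against 0.01 at 8h2h. The 8h median was -0.04 without KO 8h a, and the 8h2h median was 0.17 without scaling, 0.03 with the mean of probes or without Rescue 8h2h c, and 0.01 without KO 8h2h c. From 0h to 8h the Rescue-labelled line had 3 members higher and 5 lower, where 29.1% of all genes were called (13% and 16.1%), and the KO-labelled line had 2 higher and 5 lower, where 25.4% were called (11.9% and 13.5%). From 0h to 8h2h the counts were 6 higher and 3 lower in the Rescue-labelled line (21.3% of all genes called, 10.5% higher and 10.8% lower) and 1 higher and 4 lower in the KO-labelled line (22.4% called, 11% and 11.4%). Without regard to direction the members were called about as often as genes in general, and nothing particular to the set is read from these counts. Single arrays moved some counts: between the lines at 0h the 6 members became 3 without Rescue 0h a and 10 without KO 8h2h b, and at 8h2h the 9 became 4 without Rescue 8h2h a or b. From 0h to 8h2h the 9 of the Rescue-labelled line became 3 to 5 without Rescue 0h a or b or any 1 of the 3 Rescue-labelled 8h2h arrays, and the 5 of the KO-labelled line became 3 without KO 0h a or KO 8h2h c and 10 without Rescue 0h c. Comparisons that use the same arrays, such as 8h and 8h2h against 0h, share their spread and are not independent of each other. In RNA from whole cultures, fewer cells of a type and less RNA per cell cannot be told apart.

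**Figure D1:**
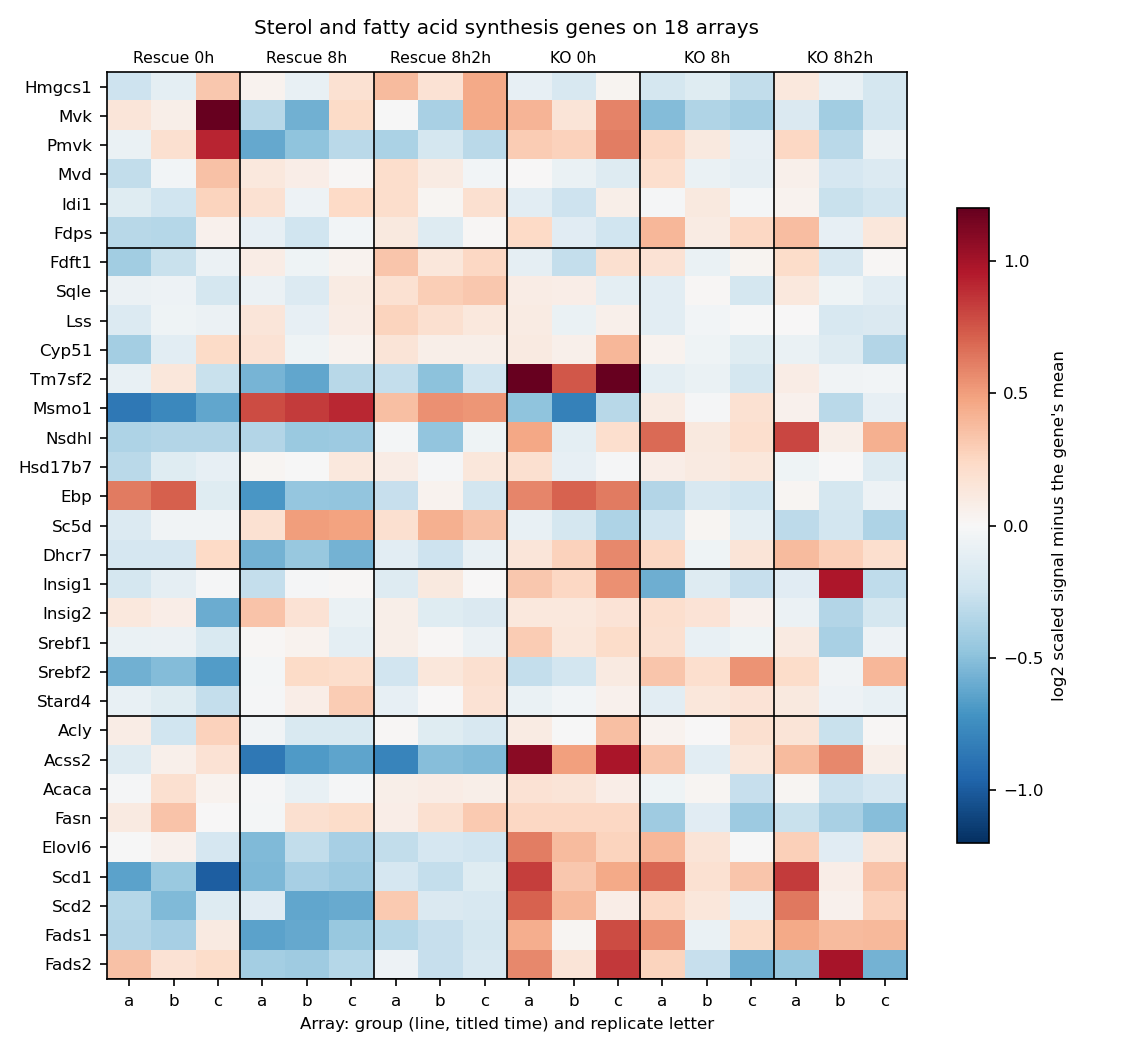
Log2 scaled signal of the 31 tested members (rows, in order of role) on the 18 arrays (columns a, b and c within each group), each minus the gene's mean over all arrays, with the colour scale ending at 1.2 on either side. Msmo1 is low on the 0h arrays and high on the treated Rescue-labelled arrays, Tm7sf2 and Acss2 are high on the KO-labelled 0h arrays, Ebp is high on 5 of the 6 0h arrays, and Hmgcs1, Mvd, Idi1 and Fdps show no called change.

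Promoter sequences of 5 members are shown because Msmo1 and Sc5d rose in the Rescue-labelled line, Tm7sf2 and Acss2 fell in both lines, and Hmgcs1 was the single member holding the classical sterol regulatory element. RefSeq windows of 300 bases (250 before and 50 after the start, build GRCm38.p6) were at hand for 25 of the 32 members, in 33 windows, and for 27025 genes in all, in 32851 windows. Motifs were searched on both strands, and their matches may overlap. The element TCACNCCAC, which SREBP binds, was found in 1 of 25 members (4%) against 1.44% of genes. CCAAT, the box of NF-Y, a partner factor of SREBP, was found in 21 members (84%) against 41.1% of genes, GGGCGG, the GC box of Sp1, in 21 (84%) against 38.2%, and CACGTG, an E-box, in 5 (20%) against 8.09%. TCAAGGTCA, an extended site of Esrrb, was found in 0 members against 0.466% of genes. These are matches of letters in a short window and no sites of binding.

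The stretch around the element of Hmgcs1 (chr13:119690194-119690242, plus strand, with 1 match, in capitals, whose first base lies 137 bases before the start) and the 250 bases before the starts of Msmo1 (chr8:64733579-64733828, minus strand), Sc5d (chr9:42264301-42264550, minus strand), Tm7sf2 (chr19:6067851-6068100, minus strand) and Acss2 (chr2:155517793-155518042, plus strand) read as follows on the strand of the gene. Capitals mark a match to any of the motifs in either orientation.
Hmgcs1: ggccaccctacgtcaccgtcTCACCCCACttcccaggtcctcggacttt
Msmo1: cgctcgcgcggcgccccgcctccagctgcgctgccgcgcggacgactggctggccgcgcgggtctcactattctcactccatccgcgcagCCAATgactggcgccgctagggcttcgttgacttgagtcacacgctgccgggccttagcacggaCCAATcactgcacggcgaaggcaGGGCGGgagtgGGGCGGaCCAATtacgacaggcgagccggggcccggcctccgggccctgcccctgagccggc
Sc5d: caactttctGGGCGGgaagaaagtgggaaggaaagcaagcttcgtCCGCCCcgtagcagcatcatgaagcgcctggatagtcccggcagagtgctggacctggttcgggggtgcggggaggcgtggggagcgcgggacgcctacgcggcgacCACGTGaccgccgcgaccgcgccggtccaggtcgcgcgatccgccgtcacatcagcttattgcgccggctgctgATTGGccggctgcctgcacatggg
Tm7sf2: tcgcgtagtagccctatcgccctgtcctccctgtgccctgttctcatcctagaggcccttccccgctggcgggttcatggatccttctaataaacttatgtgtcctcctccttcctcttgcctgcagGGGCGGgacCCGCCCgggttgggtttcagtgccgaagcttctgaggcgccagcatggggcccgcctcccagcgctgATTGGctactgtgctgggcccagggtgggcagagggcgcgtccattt
Acss2: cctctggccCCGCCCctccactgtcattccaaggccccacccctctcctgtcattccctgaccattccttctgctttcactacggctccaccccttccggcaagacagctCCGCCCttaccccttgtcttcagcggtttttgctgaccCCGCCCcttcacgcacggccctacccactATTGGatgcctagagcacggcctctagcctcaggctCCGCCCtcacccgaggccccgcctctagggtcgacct
Msmo1 holds 3 CCAAT boxes and 2 GC boxes, and Sc5d 1 CCAAT box, 2 GC boxes and 1 E-box. Tm7sf2 holds 1 CCAAT box and 2 GC boxes, and Acss2 1 CCAAT box and 4 GC boxes. The genes that rose and those that fell both carried the CCAAT and GC boxes in these windows. As each box was found in 84% of members, this says nothing about direction.

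In the mevalonate and isoprenoid steps almost nothing was called. Between the lines limma called 0 of 6 at each time (at an unadjusted p below 0.05 there were 0 at 0h, 2 at 8h and 1 at 8h2h, beside 30.8%, 32.4% and 32.7% of all genes), and Pmvk alone was called with time. Pmvk, phosphomevalonate kinase, read 3.06, 3.34 and 4.06 on the Rescue-labelled arrays a, b and c titled 0h, 2.53, 2.66 and 2.82 at 8h, and 2.76, 2.93 and 2.82 at 8h2h. On the KO-labelled arrays it read 3.45, 3.42 and 3.76 at 0h, 3.39, 3.26 and 3.05 at 8h, and 3.39, 2.82 and 3.07 at 8h2h. The Rescue-labelled 0h array c was far above its replicates, and no treated Rescue-labelled array reached the 0h arrays. Pmvk fell by 0.82 ± 0.21 to 8h (1.76-fold, adjusted p = 0.0103) and by 0.65 ± 0.21 to 8h2h (adjusted p = 0.0433). Without the Rescue-labelled 0h array c these were -0.53 (adjusted p = 0.0367) and -0.37 (adjusted p = 0.173), and the 8h2h call was lost without each of 13 of the 18 arrays (adjusted p = 0.0505 to 0.173), all but Rescue 0h a and the KO-labelled arrays 0h c, 8h c, 8h2h a and 8h2h b.

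The other 5 genes of these steps were called in no comparison. They are Hmgcs1, the synthase before mevalonate, Mvk, the kinase of mevalonate, Mvd, the decarboxylase, Idi1, the isopentenyl pyrophosphate isomerase, and Fdps, the farnesyl pyrophosphate synthase. Hmgcs1 averaged 4.27 ± 0.30, 4.33 ± 0.14 and 4.63 ± 0.15 on the Rescue-labelled arrays at 0h, 8h and 8h2h, and 4.20 ± 0.11, 4.08 ± 0.08 and 4.23 ± 0.17 on the KO-labelled arrays. Its largest difference, -0.39 ± 0.14 between the lines at 8h2h, had an adjusted p of 0.0682, with no overlap of the arrays. Mvk had the widest spread, with 3.51, 3.44 and 4.71 on the Rescue-labelled 0h arrays, so that its change of -0.75 ± 0.31 to 8h in that line (adjusted p = 0.0838) and of -0.81 ± 0.31 in the other (adjusted p = 0.0693) were not called.

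Msmo1, the methylsterol monooxygenase that starts the removal of the methyl groups at carbon 4 of the sterol ring, had the largest rise of all members. On the Rescue-labelled arrays it read 2.74, 2.83 and 2.98 at 0h, 4.38, 4.44 and 4.50 at 8h, and 3.96, 4.15 and 4.13 at 8h2h. On the KO-labelled arrays it read 3.12, 2.79 and 3.27 at 0h, 3.70, 3.59 and 3.78 at 8h, and 3.65, 3.28 and 3.50 at 8h2h. Every treated array lay above every 0h array of its line, and at 8h and 8h2h all Rescue-labelled arrays lay above all KO-labelled ones, while at 0h the lines overlapped. Msmo1 rose by 1.59 ± 0.13 to 8h in the Rescue-labelled line (3.01-fold, adjusted p = 5.6e-07) and by 0.63 ± 0.13 in the KO-labelled line (1.55-fold, adjusted p = 0.00227). To 8h2h the rises were 1.23 ± 0.13 (adjusted p = 1.07e-05) and 0.41 ± 0.13 (adjusted p = 0.034). The difference between the lines was 0.21 ± 0.13 at 0h (not called), -0.75 ± 0.13 at 8h (1.68-fold lower on KO-labelled arrays, adjusted p = 8.72e-04) and -0.61 ± 0.13 at 8h2h (adjusted p = 0.00398).

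The rise itself differed between the lines, the single such case among the members as read by the brightest probe of each gene. The change to 8h was smaller by 0.96 ± 0.18 in the KO-labelled line (a line difference of -0.96, adjusted p = 0.0127, where 2.28% of all genes were called, 1.07% above and 1.21% below 0), and it was smaller on each slide, at -1.06, -0.82 and -1.01. The change to 8h2h differed by -0.81 ± 0.18 (adjusted p = 0.0372, 2.02% of all genes called, 1.19% above and 0.83% below 0). A second, dimmer Msmo1 probe gave -0.96 and -0.80. The call at 8h held without each array in turn, but was lost without scaling between arrays (adjusted p = 0.509). The call at 8h2h was lost without each of 11 arrays (adjusted p = 0.0507 to 0.109), all but Rescue 0h c, KO 0h b, KO 8h b, KO 8h c and the 3 KO-labelled arrays titled 8h2h, and the KO-labelled change from 0h to 8h2h was lost without KO 0h a, KO 0h b, KO 8h2h a or KO 8h2h c (adjusted p = 0.0603 to 0.141).

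Sc5d, the lathosterol oxidase late in the pathway, rose in the Rescue-labelled line. It read 0.52, 0.64 and 0.64 at 0h, 0.86, 1.18 and 1.16 at 8h, and 0.87, 1.11 and 1.03 at 8h2h there. The KO-labelled arrays read 0.59, 0.47 and 0.31 at 0h, 0.45, 0.70 and 0.56 at 8h, and 0.37, 0.46 and 0.31 at 8h2h, with no called change between times. The rise in the Rescue-labelled line was 0.47 ± 0.11 to 8h (adjusted p = 0.00615) and 0.40 ± 0.11 to 8h2h (adjusted p = 0.0202, lost without Rescue 0h a, Rescue 8h2h b or Rescue 8h2h c, at 0.0667 to 0.0875). Between the lines Sc5d differed by -0.50 ± 0.11 at 8h (adjusted p = 0.00622) and -0.63 ± 0.11 at 8h2h (1.54-fold lower on KO-labelled arrays, adjusted p = 0.00128). The line difference in its change, -0.35 ± 0.16 at 8h (adjusted p = 0.386) and -0.48 ± 0.16 at 8h2h (adjusted p = 0.168), did not pass the test, so a difference between the lines in the response of Sc5d was not shown.

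Tm7sf2, a sterol reductase at carbon 14, stood out on the untreated KO-labelled arrays. It read 1.15, 0.69 and 1.14 there, -0.18, -0.14 and -0.27 at 8h, and 0.03, -0.10 and -0.09 at 8h2h. The Rescue-labelled arrays read -0.15, 0.08 and -0.33 at 0h, -0.62, -0.68 and -0.39 at 8h, and -0.34, -0.55 and -0.30 at 8h2h. The 3 KO-labelled 0h arrays were thus the highest of all 18. Tm7sf2 was 1.13 ± 0.14 higher on KO-labelled arrays at 0h (2.18-fold, adjusted p = 8.27e-05), fell by 1.19 ± 0.14 to 8h in that line (2.29-fold, adjusted p = 2.00e-05) and was still -1.04 ± 0.14 against 0h at 8h2h (adjusted p = 1.04e-04). In the Rescue-labelled line it fell by 0.43 ± 0.14 to 8h (adjusted p = 0.0323, lost without Rescue 0h a, Rescue 0h b, Rescue 8h a or Rescue 8h b, at 0.0628 to 0.133). The line difference in the change to 8h was -0.76 ± 0.20 and missed the threshold (adjusted p = 0.0677), as did that to 8h2h, -0.78 ± 0.20 (adjusted p = 0.0623). A dimmer second probe moved the same way, by 0.96 between the lines at 0h and by -1.06 to 8h in the KO-labelled line.

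Ebp, the isomerase that shifts the double bond from carbon 8 to carbon 7, fell in both lines. On the Rescue-labelled arrays it read 3.47, 3.57 and 2.70 at 0h, 2.15, 2.39 and 2.38 at 8h, and 2.57, 2.89 and 2.63 at 8h2h. On the KO-labelled arrays it read 3.44, 3.56 and 3.47 at 0h, 2.50, 2.66 and 2.61 at 8h, and 2.87, 2.64 and 2.79 at 8h2h. Apart from the Rescue-labelled 0h array c, the 0h arrays were at one level in both lines, and the lines were called different at no time. Ebp changed by -0.94 ± 0.18 to 8h in the Rescue-labelled line (1.92-fold lower, adjusted p = 0.0012) and by -0.90 ± 0.18 in the KO-labelled line (1.87-fold lower, adjusted p = 0.00187). To 8h2h the changes were -0.55 ± 0.18 (adjusted p = 0.0425) and -0.72 ± 0.18 (adjusted p = 0.0105). The first of these, whose arrays overlapped, was lost without each of 14 arrays (adjusted p = 0.0508 to 0.17), all but Rescue 0h c, Rescue 8h a, Rescue 8h2h b and KO 8h2h b.

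**Figure D2:**
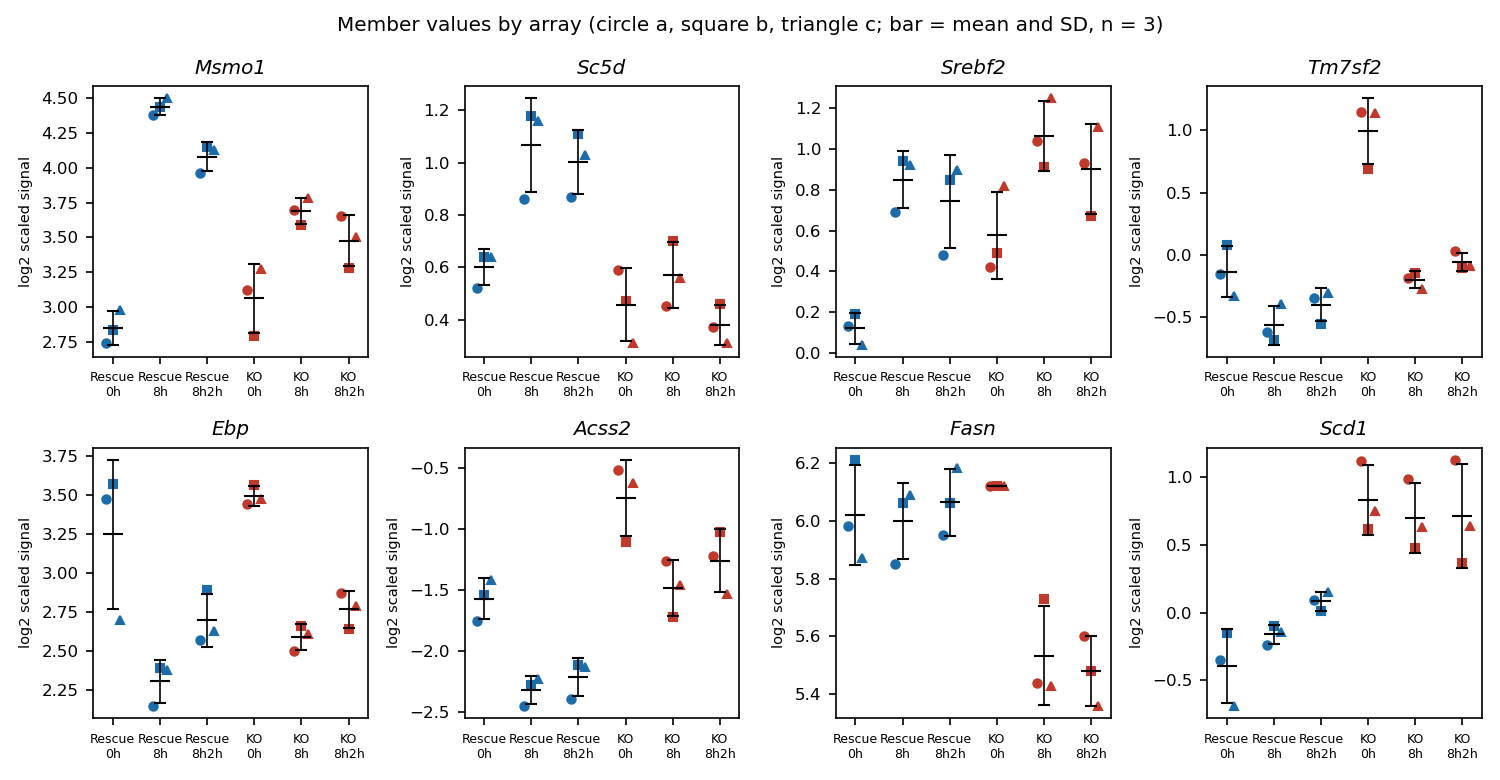
Log2 scaled signal (vertical axis, its range set for each gene) of 8 members on the Rescue-labelled (blue) and KO-labelled (red) arrays by titled time, with circles for replicate a, squares for b, triangles for c, and bars for the mean and SD of 3 arrays. Msmo1 reaches 4.38 to 4.50 on the Rescue-labelled 8h arrays and 3.59 to 3.78 on the KO-labelled ones, Tm7sf2 reaches 0.69 to 1.15 on the KO-labelled 0h arrays alone, and Fasn lies between 5.36 and 5.73 on the treated KO-labelled arrays, below all others.

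Nsdhl, which works with Msmo1 in the same demethylation, and Dhcr7, the last reductase of the pathway, were higher on the treated KO-labelled arrays. Nsdhl read -0.58, -0.56 and -0.56 on the Rescue-labelled arrays at 0h, -0.56, -0.66 and -0.65 at 8h, and -0.24, -0.69 and -0.26 at 8h2h, against 0.25, -0.33 and -0.01, then 0.47, -0.10 and -0.01, then 0.59, -0.14 and 0.21 on the KO-labelled arrays. At each time every KO-labelled array was above every Rescue-labelled one, with array a the highest. The difference was 0.53 ± 0.20 at 0h (adjusted p = 0.0822), 0.74 ± 0.20 at 8h (adjusted p = 0.0158) and 0.62 ± 0.20 at 8h2h (adjusted p = 0.0399). The 8h call was lost without KO 8h a, Rescue 8h b or Rescue 8h c (adjusted p = 0.0527 to 0.0862), and the 8h2h call without each of 10 arrays (adjusted p = 0.0503 to 0.178), all 3 Rescue-labelled arrays titled 8h and all 3 titled 8h2h, Rescue 0h a and b, and KO 8h2h a and c.

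Dhcr7 read -0.53, -0.53 and -0.09 on the Rescue-labelled arrays at 0h, -0.89, -0.78 and -0.89 at 8h, and -0.45, -0.58 and -0.42 at 8h2h. The KO-labelled arrays read -0.18, -0.05 and 0.25, then -0.08, -0.38 and -0.17, then 0.05, -0.04 and -0.13. The lines overlapped at 0h and were apart at 8h and 8h2h. Dhcr7 fell by 0.47 ± 0.14 to 8h in the Rescue-labelled line (adjusted p = 0.0192, lost without Rescue 0h c, Rescue 8h a or Rescue 8h c, at 0.0591 to 0.0804), and the lines differed by 0.65 ± 0.14 at 8h (1.57-fold, adjusted p = 0.00386) and 0.44 ± 0.14 at 8h2h (adjusted p = 0.0348). The 8h2h call was lost without any 1 of KO 8h2h a, KO 8h2h b or the 3 Rescue-labelled arrays of that time (adjusted p = 0.0529 to 0.125).

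The squalene enzymes moved little. Fdft1, which makes squalene, read 2.84, 2.99 and 3.19 on the Rescue-labelled 0h arrays and 3.59, 3.40 and 3.51 on those titled 8h2h, a rise of 0.49 ± 0.14 (adjusted p = 0.0216, lost without Rescue 0h a, Rescue 0h b, Rescue 8h2h a or Rescue 8h2h c, at 0.0566 to 0.0831). Sqle, the epoxidase after it, read 3.51, 3.52 and 3.37 and then 3.77, 3.88 and 3.91 on the same arrays, a rise of 0.38 ± 0.10 (adjusted p = 0.0168, lost without Rescue 0h c, Rescue 8h2h b or Rescue 8h2h c, at 0.0526 to 0.0664). On these arrays the 8h2h values of both genes lay above all 0h values. At 8h the Rescue-labelled arrays read 3.35, 3.21 and 3.30 for Fdft1 and 3.51, 3.42 and 3.68 for Sqle. On the KO-labelled arrays Fdft1 read 3.15, 2.97 and 3.45 at 0h, 3.43, 3.18 and 3.29 at 8h, and 3.48, 3.07 and 3.27 at 8h2h. Sqle read 3.67, 3.66 and 3.47, then 3.46, 3.60 and 3.37, then 3.71, 3.53 and 3.46 there. The times overlapped in that line for both genes, and neither was called. Lss, the cyclase that makes lanosterol, read 1.68, 1.79 and 1.77 and then 2.11, 2.03 and 1.97, a rise of 0.29 ± 0.09 (adjusted p = 0.0399). At 8h the Rescue-labelled arrays read 1.99, 1.74 and 1.93. The KO-labelled arrays read 1.94, 1.76 and 1.9 at 0h, 1.71, 1.81 and 1.84 at 8h, and 1.85, 1.65 and 1.67 at 8h2h. At 8h2h all 3 of these were lower than the Rescue-labelled ones, a difference of -0.32 ± 0.09 (1.25-fold, adjusted p = 0.0272). The rise was lost without each of 9 arrays (adjusted p = 0.0501 to 0.134), the 3 Rescue-labelled arrays at 0h and the 3 at 8h2h, Rescue 8h c, KO 8h b and KO 8h2h c. The difference between the lines was lost without KO 8h2h b, KO 8h2h c, Rescue 8h2h a or Rescue 8h2h b (adjusted p = 0.0653 to 0.0979), and 1 of 2 dimmer Lss probes gave 0.48 in its place. Cyp51, the lanosterol demethylase, and Hsd17b7, the keto reductase of the demethylation complex, were called in no comparison, with changes between groups of -0.39 to 0.30 and of -0.17 to 0.26.

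Among the SREBP control genes Srebf2, the gene of SREBP2, rose in both lines. On the Rescue-labelled arrays it read 0.13, 0.19 and 0.04 at 0h, 0.69, 0.94 and 0.92 at 8h, and 0.48, 0.85 and 0.90 at 8h2h. On the KO-labelled arrays it read 0.42, 0.49 and 0.82 at 0h, 1.04, 0.91 and 1.25 at 8h, and 0.93, 0.67 and 1.11 at 8h2h. The 8h arrays lay above the 0h arrays in both lines, and at 0h the KO-labelled arrays lay above the Rescue-labelled ones. Srebf2 rose by 0.73 ± 0.15 to 8h in the Rescue-labelled line (1.66-fold, adjusted p = 0.00232) and by 0.49 ± 0.15 in the KO-labelled line (1.40-fold, adjusted p = 0.0299, lost without KO 0h a, KO 0h b, KO 8h a or KO 8h c, at 0.0641 to 0.129). At 8h2h the change was 0.62 ± 0.15 in the Rescue-labelled line (adjusted p = 0.0094). The 0h difference between the lines, 0.46 ± 0.15, fell just short (adjusted p = 0.0517).

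Insig1, the sterol-sensing anchor of Scap and itself an SREBP target, fell by 0.71 ± 0.25 to 8h in the KO-labelled line (1.64-fold, adjusted p = 0.0491). Its KO-labelled arrays read -1.54, -1.62 and -1.32 at 0h, -2.45, -2.02 and -2.14 at 8h, and -2.00, -0.90 and -2.17 at 8h2h, where array b, the one with 88.6% of probes above background, stood far above its replicates. On the Rescue-labelled arrays it read -2.08, -1.97 and -1.88 at 0h, -2.15, -1.88 and -1.85 at 8h, and -2.02, -1.75 and -1.86 at 8h2h, with all times overlapping. The call was lost without each of 15 arrays (adjusted p = 0.0544 to 0.17), all but the 3 KO-labelled arrays titled 8h2h. Insig2, its relative, Srebf1 and Stard4, a carrier of sterol between membranes, were called in no comparison, and the adjusted p nearest to the threshold was that of Srebf1 from 0h to 8h2h in the KO-labelled line, 0.0641, at -0.33 ± 0.12.

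Scap, the escort of SREBP out of the endoplasmic reticulum, was fitted with the outlier spot on the Rescue-labelled 0h array c left missing, over 16069 genes. It read 3.18 and 3.05 at 0h, 3.08, 2.99 and 2.95 at 8h, and 3.19, 2.99 and 3.03 at 8h2h on the Rescue-labelled arrays, and 2.72, 2.77 and 2.15, then 2.69, 2.86 and 2.50, then 2.58, 2.55 and 2.55 on the KO-labelled arrays. Every KO-labelled array was below every Rescue-labelled one. The difference was -0.57 ± 0.16 at 0h (adjusted p = 0.0279), -0.32 ± 0.15 at 8h (adjusted p = 0.147) and -0.51 ± 0.15 at 8h2h (adjusted p = 0.026), and no change with time was called.

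Of the 9 fatty acid genes, 5 were higher on the KO-labelled arrays at 0h, 4 higher and 1 lower at 8h, and 3 higher and 1 lower at 8h2h. Of all genes, 7.09%, 9.16% and 9.55% were higher and 11.3%, 12.4% and 12.3% lower at these times. Acss2, which makes acetyl-CoA from acetate, was the most often called member, in 7 of the 9 comparisons of groups. It read -1.75, -1.54 and -1.42 on the Rescue-labelled arrays at 0h, -2.45, -2.28 and -2.23 at 8h, and -2.39, -2.11 and -2.13 at 8h2h. On the KO-labelled arrays it read -0.51, -1.1 and -0.62, then -1.26, -1.72 and -1.46, then -1.22, -1.02 and -1.53. The KO-labelled arrays were above the Rescue-labelled ones at each time, and the treated arrays were below the 0h arrays of their line, except that KO 8h2h b lay within the KO-labelled 0h range.

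Acss2 differed between the lines by 0.83 ± 0.18 at 0h (1.77-fold, adjusted p = 0.0046), 0.84 ± 0.18 at 8h (adjusted p = 0.00354) and 0.95 ± 0.18 at 8h2h (1.93-fold, adjusted p = 0.00152). From 0h to 8h it changed by -0.75 ± 0.18 in the Rescue-labelled line (adjusted p = 0.00505) and by -0.74 ± 0.18 in the KO-labelled line (adjusted p = 0.00649), so the lines kept their distance. To 8h2h the changes were -0.64 ± 0.18 (adjusted p = 0.0187, lost without Rescue 0h b, Rescue 0h c or Rescue 8h2h a, at 0.0518 to 0.0793) and -0.52 ± 0.18 (adjusted p = 0.0498). The last was lost without each of 13 arrays (adjusted p = 0.052 to 0.174), all but Rescue 0h c, KO 0h b, KO 8h a, KO 8h b and KO 8h2h b, and with the slide as a block.

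Fasn, the fatty acid synthase, fell in the KO-labelled line. It read 6.12, 6.12 and 6.12 on the KO-labelled 0h arrays, 5.44, 5.73 and 5.43 at 8h, and 5.60, 5.48 and 5.36 at 8h2h. The Rescue-labelled arrays read 5.98, 6.21 and 5.87, then 5.85, 6.06 and 6.09, then 5.95, 6.06 and 6.18. The treated KO-labelled arrays were the lowest 6 of the 18, and the Rescue-labelled arrays did not separate by time. Fasn fell by 0.58 ± 0.12 to 8h (1.5-fold, adjusted p = 0.00208) and by 0.64 ± 0.12 to 8h2h (1.56-fold, adjusted p = 0.00144) in the KO-labelled line, and the lines differed by -0.47 ± 0.12 at 8h (adjusted p = 0.0117, lost without KO 8h a, KO 8h c or Rescue 8h c, at 0.0519 to 0.0553) and by -0.59 ± 0.12 at 8h2h (adjusted p = 0.00272). The line difference in its change was -0.57 ± 0.17 to 8h (adjusted p = 0.119) and -0.69 ± 0.17 to 8h2h (adjusted p = 0.0533), short of the threshold.

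Of the desaturases and Elovl6, Scd1 and Fads1 were called higher on the KO-labelled arrays at all 3 times, Elovl6 at 0h and 8h, Scd2 at 0h, and Fads2 at no time. Scd1, a stearoyl-CoA desaturase, read -0.35, -0.15 and -0.69 on the Rescue-labelled arrays at 0h, -0.24, -0.10 and -0.14 at 8h, and 0.09, 0.01 and 0.15 at 8h2h, against 1.12, 0.62 and 0.75, then 0.99, 0.48 and 0.63, then 1.13, 0.37 and 0.64 on the KO-labelled arrays. All 9 KO-labelled arrays were above all 9 Rescue-labelled ones. The difference was 1.22 ± 0.20 at 0h (2.33-fold, adjusted p = 6.60e-04), 0.86 ± 0.20 at 8h (adjusted p = 0.00642) and 0.63 ± 0.20 at 8h2h (adjusted p = 0.035, lost without KO 8h2h a, KO 8h2h c or any of the 3 Rescue-labelled arrays of that time, at 0.0575 to 0.14). No change of Scd1 with time was called.

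Scd2, its paralog, read 3.84, 3.65 and 4.03 at 0h on the Rescue-labelled arrays and 4.89, 4.57 and 4.26 on the KO-labelled ones, higher by 0.73 ± 0.21 (1.66-fold, adjusted p = 0.0243, lost without Rescue 0h a, Rescue 0h b, KO 0h a or KO 0h b, at 0.0506 to 0.113). At 8h it read 4.05, 3.56 and 3.58 against 4.43, 4.32 and 4.09, and at 8h2h 4.50, 4.01 and 3.99 against 4.81, 4.23 and 4.46. The lines were apart at 8h but not called (0.55 ± 0.21, adjusted p = 0.0752), and overlapped at 8h2h. Scd1 and Scd2 were each read by 1 probe, and cross-binding between paralogs was not tested. Fads1, the delta-5 desaturase, read -0.82, -0.87 and -0.36 on the Rescue-labelled arrays at 0h, -1.11, -1.09 and -0.93 at 8h, and -0.81, -0.75 and -0.68 at 8h2h, against -0.04, -0.45 and 0.31, then 0.08, -0.55 and -0.24, then -0.02, -0.09 and -0.08. It overlapped between the lines at 0h and was separate afterwards. The differences were 0.63 ± 0.19 at 0h (adjusted p = 0.034), 0.81 ± 0.19 at 8h (1.75-fold, adjusted p = 0.0076) and 0.68 ± 0.19 at 8h2h (adjusted p = 0.0201). The 0h call was lost without Rescue 0h a, Rescue 0h b, KO 0h a or KO 0h c (adjusted p = 0.0905 to 0.155), and the 8h2h call without Rescue 8h2h a, Rescue 8h2h b or KO 8h2h a (adjusted p = 0.0537 to 0.0631).

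Elovl6, an elongase of palmitate, read 2.87, 2.93 and 2.67 at 0h and 2.34, 2.58 and 2.48 at 8h on the Rescue-labelled arrays, against 3.49, 3.25 and 3.14 and 3.27, 3.03 and 2.87 on the KO-labelled ones. The lines did not overlap at either time. At 8h2h Elovl6 read 2.58, 2.67 and 2.64 against 3.16, 2.74 and 3.02, again without overlap. The difference was 0.47 ± 0.14 at 0h (adjusted p = 0.0288, lost without Rescue 0h a, Rescue 0h c or KO 0h a, at 0.052 to 0.128) and 0.59 ± 0.14 at 8h (1.5-fold, adjusted p = 0.00711), and 0.34 ± 0.14 at 8h2h (adjusted p = 0.0951). Acly, which makes acetyl-CoA from citrate, Acaca, the acetyl-CoA carboxylase, and Fads2, the delta-6 desaturase, were called in no comparison. Acly had group means of 5.06 to 5.35, and Acaca changed by at most -0.28 ± 0.10 (0h to 8h2h, KO-labelled line, adjusted p = 0.0572). Fads2 read -2.28, -0.84 and -2.39 on the KO-labelled arrays titled 8h2h, where array b again stood apart, so its SD of 0.86 there was the widest of any member in any group.

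**Figure D3:**
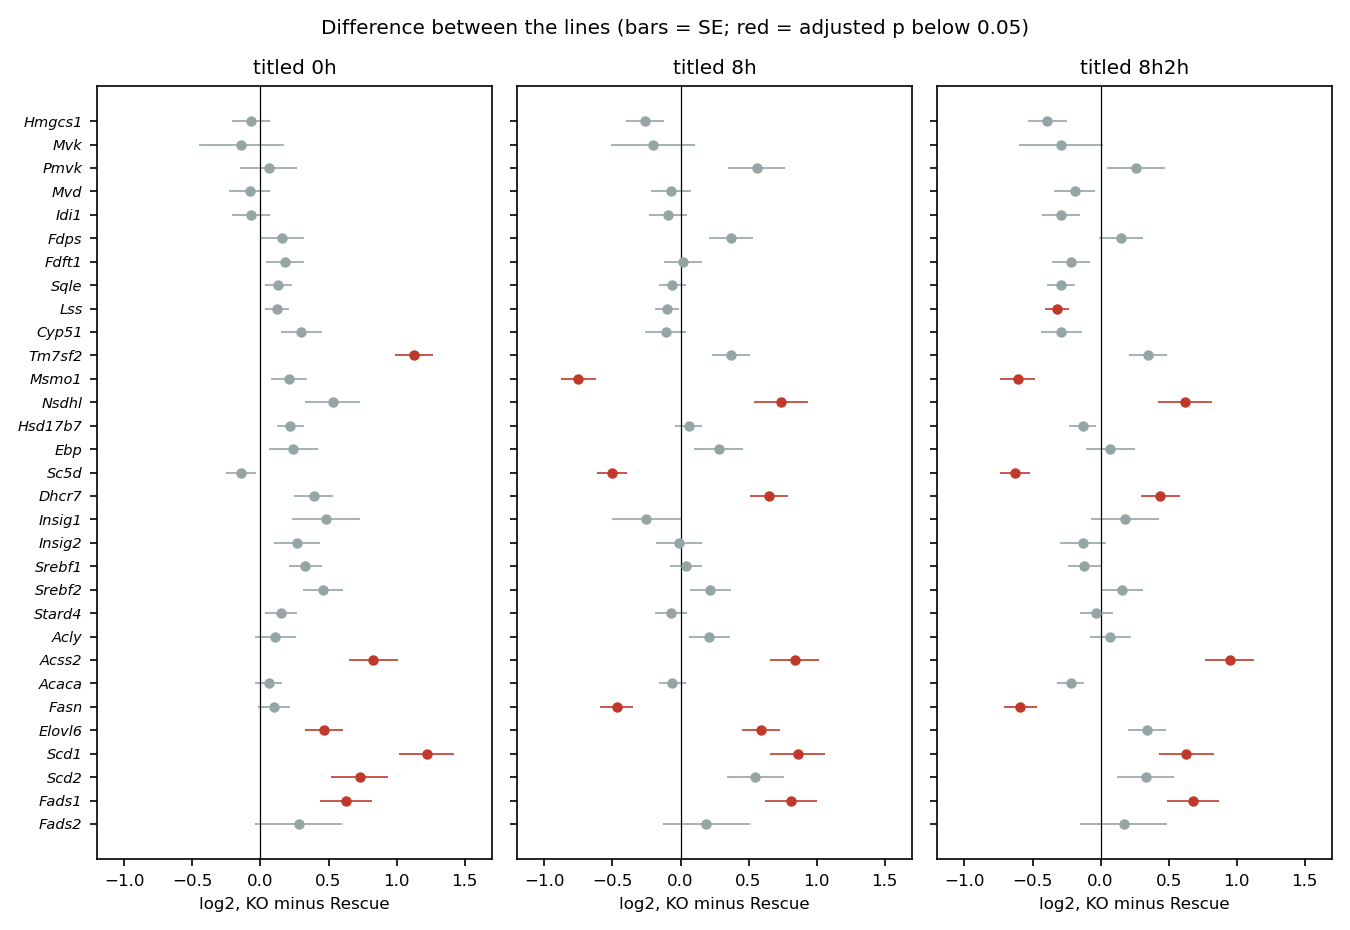
Difference between the lines (horizontal axis, log2, KO-labelled minus Rescue-labelled, bars for the standard error) for the 31 tested members at each titled time, with red for an adjusted p below 0.05 and grey for the rest. Acss2, Scd1 and Fads1 are red and to the right at all 3 times, and Msmo1, Sc5d and Fasn are red and to the left at 8h and 8h2h.

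The lines' differences at 0h came with differences in markers of other cell types, whose part in the results was not tested. Of 8 tested trophoblast markers, 8 were lower on the KO-labelled arrays at 0h, with a summed signal of 16.2 to 25.1 times the 75th percentile against 174 to 199, and Cdx2, Hand1 and Plac1 were well above background on no KO-labelled 0h array. At 8h and 8h2h 7 of 8 were lower (45.2 to 59.0 against 268 to 280, and 43.0 to 47.1 against 252 to 281). Of 7 pluripotency markers, 5 were higher at 0h on the KO-labelled arrays (624 to 662 against 556 to 692), 3 at 8h and 4 at 8h2h, and all 7 were read in every group. Among them Pou5f1, Sox2 and Nanog were higher at 0h by 0.61, 0.61 and 1.51. Of 10 primitive endoderm markers 1 was higher and 4 were lower at 0h (24.8 to 33.4 against 13.9 to 18.5), and of 8 tested fibroblast markers 0 were higher and 1 was lower (12.4 to 15.3 against 7.86 to 12.4). With time, trophoblast markers moved too, with 3 higher and 0 lower to 8h in the Rescue-labelled line and 4 higher and 2 lower in the KO-labelled line. Fibroblast markers rose in 4 of 8 cases in the Rescue-labelled line (7.86 to 12.4 at 0h, 23.2 to 31.8 at 8h), with a median change of 0.92. In the KO-labelled line 2 of 8 rose (12.4 to 15.3, then 32.1 to 38.1), but the median change was -0.08. Col3a1 and Fap were well above background on no 0h array, and Col3a1, Fap and Dcn on no KO-labelled 8h array. Of all genes, 13% rose and 16.1% fell to 8h in the Rescue-labelled line, and 11.9% and 13.5% in the KO-labelled line.

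Across time the members of the 2 lines can be set side by side at 8h. Msmo1 and Srebf2 rose and Ebp, Acss2 and Tm7sf2 fell in both lines. Of these calls, the Rescue-labelled fall of Tm7sf2 was lost under 5 of the 11 other settings. The KO-labelled rise of Srebf2 was lost under 4 of them, and both were lost without each of 4 arrays. Sc5d, Pmvk and Dhcr7 were called in the Rescue-labelled line alone and Fasn and Insig1 in the KO-labelled line alone, but none of these 5 differed between the lines in the test of the difference itself. In that test 1 of 31 members, Msmo1, was called for the change to 8h, with a members' median of -0.17 against 0.01 for all genes, and 21 of 31 values were below 0, beside 48.5% of all genes. The median was -0.10 without Rescue 0h a or without KO 0h a. The number called was 2 without Rescue 0h b or KO 0h b and 3 without KO 8h2h b. For the change to 8h2h 26 of 31 were below 0, with a median of -0.30 against 0.03 for all genes, of which 53.4% were above 0. That median was -0.22 with another background correction or with the mean of probes, and -0.21 without KO 0h c. Again Msmo1 alone was called (2 members with the slide as a block), and 9 members had an unadjusted p below 0.05, as had 13.7% of all genes.

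**Figure D4:**
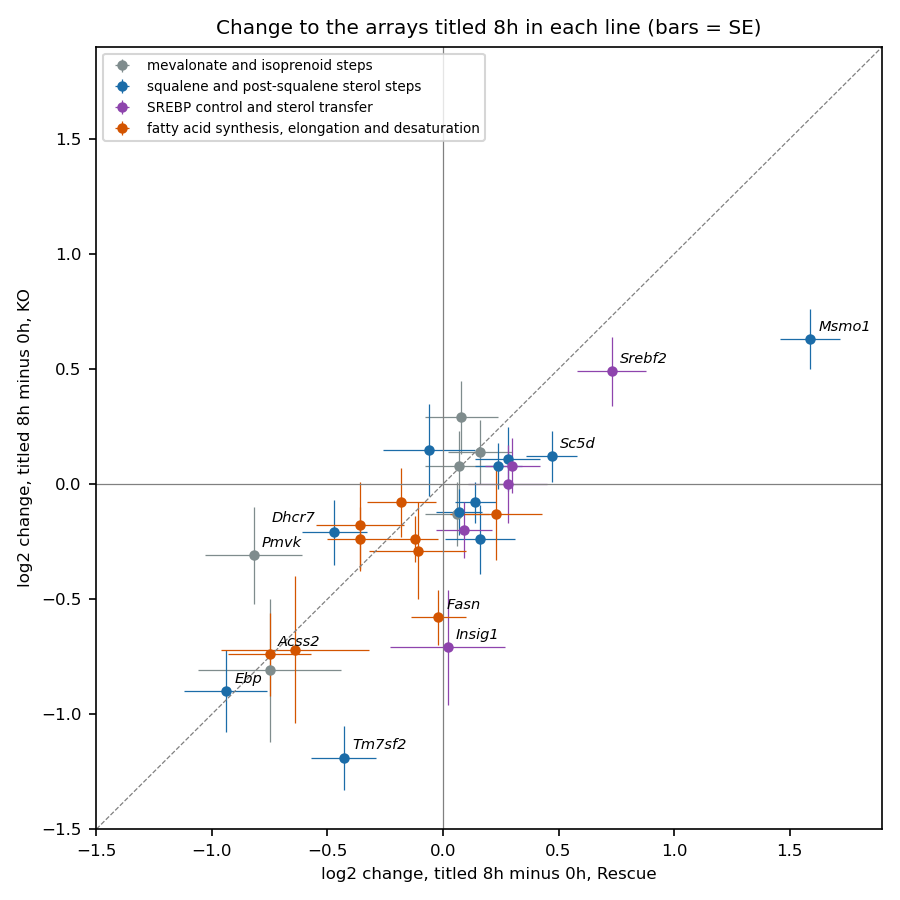
Change from 0h to 8h (log2, bars for the standard error) in the Rescue-labelled line (horizontal axis) and in the KO-labelled line (vertical axis) for the 31 tested members, coloured by role, with named points for genes called in either line and a dashed line of equal change. Msmo1, at 1.59 and 0.63, lies far to the right of the line, Ebp and Acss2 lie on it, and Tm7sf2 and Fasn lie below it.

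Between 8h and 8h2h, the step that holds the Mek inhibitor by title, 0 of 31 members were called by limma in the Rescue-labelled line, where 2.88% of all genes were (1.43% higher and 1.45% lower), and 0 of 31 in the KO-labelled line, where 7.35% were (4.14% and 3.2%). At an unadjusted p below 0.05 there were 4 in the first, with 11.1% of all genes, and 0 in the second, with 20.8%. In the Rescue-labelled line these were Sqle (0.32 ± 0.10, adjusted p = 0.159), Msmo1 (-0.36 ± 0.13, adjusted p = 0.213), Dhcr7 (0.37 ± 0.14, adjusted p = 0.242) and Ebp (0.39 ± 0.18, adjusted p = 0.438). The arrays of each of the 4 did not overlap between 8h and 8h2h, but the 4 were picked by their p, so this adds no support. Over the same step Dusp6 changed by -4.25 ± 0.23 and -4.41 ± 0.23 in the lines (adjusted p = 1.42e-07 and 6.33e-08), while Etv4 was not called. Whether the members depend on ERK was not tested. The line difference over this step called 0 members as well (0.0562% of all genes, 0.0499% above and 0.00624% below 0, with 0 members and 2.76% of all genes at an unadjusted p below 0.05), with 27 of 31 values below 0, beside 53.1% of all genes, and a median of -0.14 against -0.02. The median was -0.23 without KO 8h2h a and -0.06 without scaling.

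Other genes of sterol and lipid handling were read from a wider list of 77, of which 72 were tested. Between the lines 7 were higher and 12 lower on the KO-labelled arrays at 0h, 5 and 14 at 8h, and 3 and 16 at 8h2h, with list medians of -0.05, 0.02 and -0.07. Of all genes, 7.09% were higher and 11.3% lower at 0h, 9.16% and 12.4% at 8h, and 9.55% and 12.3% at 8h2h. From 0h to 8h 14 rose and 13 fell in the Rescue-labelled line and 11 rose and 13 fell in the KO-labelled line. Of 16 fatty acid oxidation genes 1 rose and 8 fell in each line over this step, beside 13% and 16.1% of all genes in the Rescue-labelled line and 11.9% and 13.5% in the KO-labelled line. Cpt1a, the carnitine transferase that admits fatty acids to the mitochondrion, averaged 1.03 ± 0.25, -1.11 ± 0.27 and -0.25 ± 0.39 on the KO-labelled arrays at 0h, 8h and 8h2h. It fell by 2.14 ± 0.24 to 8h there (4.42-fold, adjusted p = 1.32e-05) and rose by 0.86 ± 0.24 from 8h to 8h2h (adjusted p = 0.0442), and by 1.09 ± 0.24 over the same step in the Rescue-labelled line (adjusted p = 0.0235).

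Pnpla3, a lipid droplet enzyme and a known SREBP1 target, fell from 0h to 8h by 2.54 ± 0.30 in the Rescue-labelled line (5.80-fold, adjusted p = 1.72e-05) and by 2.32 ± 0.30 in the KO-labelled line (5-fold, adjusted p = 4.28e-05). The test of the difference between these falls gave 0.22 ± 0.42 (adjusted p = 0.935). Elovl1, an elongase of very long chains, was 1.63 ± 0.21 lower on the KO-labelled arrays at 0h (3.09-fold, a difference of -1.63, adjusted p = 1.03e-04), and Acsl5, an acyl-CoA synthetase, was 2.61-fold lower (-1.39 ± 0.18, adjusted p = 9.45e-05).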

How the data were processed

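Scanner output of 18 1-colour Agilent arrays was used, with 56605 probes, of which 32994 carried a gene symbol. Per the file headers, the authors' processed intensity of each spot came from Agilent Feature Extraction 12.0.1.1, which subtracted background and removed a spatial trend, with no scaling between arrays. Raw median spot and background intensity, flags for outlier spots and for signal above background, and a value table were also deposited by the authors, and the table equals the processed signal (largest difference 0). The labels name Cy5, while the headers give 1 green channel. RNA input was 100 ng per the labels' protocols.

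Log2 values minus the array's 75th percentile over 59305 non-control spots were averaged per probe, the brightest probe stood for a gene, and genes above background on all arrays of a group were kept (16022). Probes were named through RefSeq transcript names. limma 3.58.1 (R 4.3.3, data.table version 1.17.8) fitted 6 group means with no slide term, 12 contrasts and Benjamini-Hochberg adjustment, after a check on simulated data. The replicate letter is the slide, and each slide held all groups in the same positions, so position and group cannot be told apart. Of 45 pairs of same-letter arrays, 28 deviated together (r above 0.1, median 0.141, range -0.058 to 0.733), so the letters pair the arrays only in part. The number of arrays limits the precision. The members, lists and tests were chosen with earlier results of these data known. All 32 members are named, those with a called change by every array, and of other pathway genes those among the 4 largest called changes of a comparison that read above background throughout. Alternatives changed the scaling, background correction, filter, choice of probe, samples fitted and slide block, and left out each array. A few further genes of the pathway are not reported here.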

Additional observations from a re-analysis of the deposited data

Results flagged for a closer look

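Msmo1 was the single member whose response, read by its brightest probe, differed between the lines in a test of the difference itself. Its change from 0h to 8h differed by -0.96 ± 0.18 (SE, log2, KO-labelled minus Rescue-labelled, 3 arrays a group, adjusted p = 0.0127 by limma), below 0 on 3 of 3 slides. Its change from 0h to 8h2h differed by -0.81 ± 0.18 (adjusted p = 0.0372), also below 0 on 3 of 3 slides. The first call held under every alternative but no scaling. The second call was lost without each of 11 of the 18 arrays and under 5 of the other 11 settings. These 5 were no scaling, no filter, the mean of probes, only the groups compared and the percentile over probes. Both values rest on the same 0h arrays and are not independent. Groups of 3 arrays are too small for a test of single outlying samples.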

How the results depend on the processing

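All 55 called member changes kept their sign under the 29 alternatives run, of which 18 left out 1 array each and 2 (the percentile over probes, and outlier spots as missing values) were chosen after seeing the data. Of the 55, 31 were kept without each array and 9 under every alternative. Without scaling, 44 of the 55 were lost, with members called falling to 2 of 6 at 0h, 0 of 9 at 8h and 1 of 9 at 8h2h between the lines, 3 of 8 and 1 of 7 from 0h to 8h in the Rescue-labelled and KO-labelled lines, 3 of 9 and 2 of 5 from 0h to 8h2h, and 0 of 1 in both line differences. Fitting only the groups compared gave 3 members at 0h and 5 at 8h2h between the lines, 2 from 8h to 8h2h in the Rescue-labelled line, 5 and 3 from 0h to 8h2h, and 0 in the line difference to 8h2h. The percentile over probes gave 5 from 0h to 8h2h in the Rescue-labelled line and 0 in that line difference. No filter gave 3 from 0h to 8h2h in the KO-labelled line and 0 in that line difference. The mean of probes gave 1 from 8h to 8h2h in the KO-labelled line and 0 in the line difference to 8h2h. Genes above background on all arrays gave 2 and 3 in the line differences to 8h and 8h2h. The cause of these shifts was not tested.

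With the replicate block, the line difference to 8h2h called 2 members instead of 1, and the other counts were 9, 10 and 9 between the lines, 9 and 8 from 0h to 8h, 0 and 0 from 8h to 8h2h, and 9 and 7 from 0h to 8h2h. It lost 1 call, Acss2 from 0h to 8h2h in the KO-labelled line. Leaving out 1 array gave 3 to 10, 7 to 10 and 4 to 12 members between the lines at 0h, 8h and 8h2h, 6 to 10 and 5 to 8 from 0h to 8h, 0 from 8h to 8h2h, 3 to 9 and 3 to 10 from 0h to 8h2h, and 1 to 3, 0 and 0 to 2 in the line differences.

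Scaling moved the share of higher genes among all calls. From 0h to 8h it was 44.7% and 46.9% in the Rescue-labelled and KO-labelled lines and 80.7% and 79.2% without scaling. From 0h to 8h2h it was 49.3% and 49.2%, and 90.8% and 95.6% without. Between the lines at 8h2h it was 43.8%, 64.2% without scaling and 33.4% after quantile normalization.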

Other observations

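Cpt1a and Pnpla3, which lie outside the synthesis set, moved back from 8h to 8h2h. In the Rescue-labelled line Cpt1a averaged -0.39 ± 0.51 (SD, n = 3) at 0h, -1.84 ± 0.13 at 8h and -0.75 ± 0.07 at 8h2h. Its rise over the last step was called in both lines, 1.09 ± 0.24 (SE) in the Rescue-labelled and 0.86 ± 0.24 in the KO-labelled line. Pnpla3 was called over this step in the KO-labelled line alone. Pnpla3 averaged -0.64 ± 0.14 (SD, n = 3) at 0h, -2.96 ± 0.48 at 8h and -1.49 ± 0.67 at 8h2h there, a rise of 1.47 ± 0.30 (SE) over the last step (adjusted p = 0.00763 by limma), and in the Rescue-labelled line -1.46 ± 0.29, -4.00 ± 0.28 and -3.04 ± 0.14, a rise of 0.96 ± 0.30 that was not called (adjusted p = 0.127). The test of the difference between these rises gave 0.52 ± 0.42 (adjusted p = 0.996). On slides a, b and c the KO-labelled rise of Pnpla3 was 0.89, 1.95 and 1.59. The largest includes KO 8h2h b, the array with 88.6% of probes above background, and the rise without that array was not tested. Acsl5, which activates long-chain fatty acids, averaged -0.49 ± 0.34, 0.62 ± 0.09 and 0.84 ± 0.12 on the KO-labelled arrays and 0.90 ± 0.31, 0.86 ± 0.19 and 1.08 ± 0.11 on the Rescue-labelled arrays, so that its change to 8h differed between the lines by 1.15 ± 0.25 (adjusted p = 0.0258), opposite in sign to that of Msmo1. Of the 72 tested genes of the wider list, 2 were called above and 1 below 0 in this line difference. Among all genes these shares were 1.07% and 1.21%. Elovl7, another elongase, went the way of Msmo1. It averaged -2.63 at 0h and -1.47 at 8h on the Rescue-labelled arrays, and -1.58 and -2.71 on the KO-labelled arrays. A second probe of Hsd17b7 read 0.89 higher on the KO-labelled arrays at 0h, where the brighter probe that stood for the gene was not called. Its line differences were -0.72 to 8h and -0.91 to 8h2h, against -0.16 and -0.35 for the brighter probe. The second probe was not tested.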
